A study of Homo sapiens with 10 samples.

Results

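The canonical Notch target genes HES1, HEY1, HEY2, NRARP, JAG1 and HES5 were examined in SK-N-SH, a human line grown from a neuroblastoma, for binding of the coactivator MAML3 and of RARα, a receptor for retinoic acid. The assay was ChIP-seq, in which DNA bound by a protein is pulled down with an antibody and sequenced. The members were all listed peaks in a window of the hg19 build around each of the 6 genes, the gene with about 100 kb on each side. The windows ran on chromosome 3 from 193.75 to 193.96 Mb for HES1, on chromosome 8 from 80.57 to 80.78 Mb for HEY1, on chromosome 6 from 125.97 to 126.19 Mb for HEY2, on chromosome 9 from 140.09 to 140.3 Mb for NRARP, on chromosome 20 from 10.52 to 10.76 Mb for JAG1 and on chromosome 1 from 2.36 to 2.56 Mb for HES5. They held 30 of the 26482 peaks of the 8 lists. Peaks of the 4 lists of an antibody that shared at least 1 bp were merged into a site, which gave 11 of all 10251 MAML3 sites and 4 of all 2120 RARα sites.

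The cells had received 1 µM retinoic acid (RA) or the vehicle alone (untreated, UT), after 24 hours in medium with charcoal-stripped serum, which is depleted of retinoids and hormones. All samples are described as control cells, and no genotype or further agent is named. There were 2 libraries for each of the 4 groups MAML3 RA, MAML3 UT, RARα RA and RARα UT, and whether the replicates are separate cultures or repeats of 1 culture is not said. Groups of 2 are too small for a permutation test to pass any usual threshold, so no test across treatments was run, and all results are counts and ranks. The read depth was not known. The lists held 7532 and 6230 peaks for MAML3 RA, 2222 and 6759 for MAML3 UT, 1103 and 1064 for RARα RA, and 1321 and 251 for RARα UT. The short MAML3 list, UT replicate 1, carries the same library number and index tag as UT replicate 2, and the list of RARα UT replicate 2 is tagged as merged. No label explains either tag.

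Notch receptors release their intracellular domain after a ligand on a neighbouring cell is bound. The domain joins the DNA-binding protein RBPJ, and a Mastermind-like protein such as MAML3 completes the complex and brings in histone acetyltransferases. HES1, HES5, HEY1 and HEY2 encode basic helix-loop-helix repressors that the complex switches on and that hold back neuronal differentiation genes. NRARP encodes a small ankyrin-repeat protein that feeds back on the complex, and JAG1 encodes a Notch ligand. RARα binds DNA with a retinoid X receptor and recruits coactivators when retinoic acid is bound.

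The promoters of these genes are printed here because RBPJ sites there are a known feature of direct Notch targets. The RefSeq table of promoters (build GRCh38.p14) held 5 of the 6 genes, all but HEY1, whose promoter was therefore not searched. In the 250 bases before the start, the RBPJ core TGGGAA, searched on both strands, was found in 3 of these 5 promoters. Of all 27305 promoters with a sequence, 21.2% held it at least once and 2.89% at least 2 times. The 3 promoters are printed 5′ to 3′ on the strand of the gene, with each core in capitals (TTCCCA is the core on the other strand). They lie at chr3:194135898-194136147 (plus strand) for HES1, at chr6:125749382-125749631 (plus strand) for HEY2 and at chr1:2530264-2530513 (minus strand) for HES5, and these GRCh38.p14 positions cannot be set beside the hg19 positions of the peaks.
HES1 promoter: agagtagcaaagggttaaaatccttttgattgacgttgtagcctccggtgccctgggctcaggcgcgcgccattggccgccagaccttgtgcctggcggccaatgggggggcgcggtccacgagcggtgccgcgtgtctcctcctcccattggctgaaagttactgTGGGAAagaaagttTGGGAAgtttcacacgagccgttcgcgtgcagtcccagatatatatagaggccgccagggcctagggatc
HEY2 promoter: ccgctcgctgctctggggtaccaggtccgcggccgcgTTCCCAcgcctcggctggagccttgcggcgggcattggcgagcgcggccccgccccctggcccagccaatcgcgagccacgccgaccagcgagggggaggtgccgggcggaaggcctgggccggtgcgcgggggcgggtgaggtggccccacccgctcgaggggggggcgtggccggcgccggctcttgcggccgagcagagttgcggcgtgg
HES5 promoter: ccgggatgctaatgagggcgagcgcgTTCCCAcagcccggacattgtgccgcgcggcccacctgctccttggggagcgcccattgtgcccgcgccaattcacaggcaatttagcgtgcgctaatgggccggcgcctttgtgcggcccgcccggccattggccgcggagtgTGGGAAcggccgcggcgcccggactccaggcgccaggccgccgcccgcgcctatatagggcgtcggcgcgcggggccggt
HES1 held its 2 cores in the same orientation, starting 84 and 70 bases before the start. In HES5 the 2 cores faced opposite ways, 224 and 80 bases before the start, and HEY2 held 1 core, 213 bases before it. The retinoid receptor hexamer AGGTCA, searched on both strands, was in 0 of the 5 promoters and in 12.2% of all promoters. A match is a string of letters and not a site. The NRARP and HES5 windows contain the genes and held no listed peak, so no listed peak covered these promoters. The HEY2 window is 220 kb wide with about 100 kb on each side of the gene. Its nearest listed peak of either antibody was 35.5 kb from the middle, so none covered the HEY2 promoter. Whether a listed peak covers the HES1 or JAG1 promoter was not analysed, because a gene annotation of hg19 was not used here. Positions of sites are therefore given as the distance from the middle of the gene's window, near which the gene lies, negative toward lower coordinates.

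MAML3 was listed in 4 of the 6 windows and RARα in 3. HEY1 had 4 MAML3 sites, HES1 and HEY2 had 3 each, JAG1 had 1, and NRARP and HES5 had none. Over the 6 windows the MAML3 lists held 8 and 9 peaks in RA cells, and 2 and 7 in UT cells. These were 0.106 and 0.144% of the RA lists, and 0.09 and 0.104% of the UT lists, so the windows took a similar small share of every MAML3 list. The RARα lists held 1 and 1 peaks in RA cells, and 2 and 0 in UT cells. The map of peaks around the 6 genes shows that most lay on the side of higher coordinates, away from the middle of the window, and that HES1 alone had a site within 10 kb of it.

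**Figure D1:**
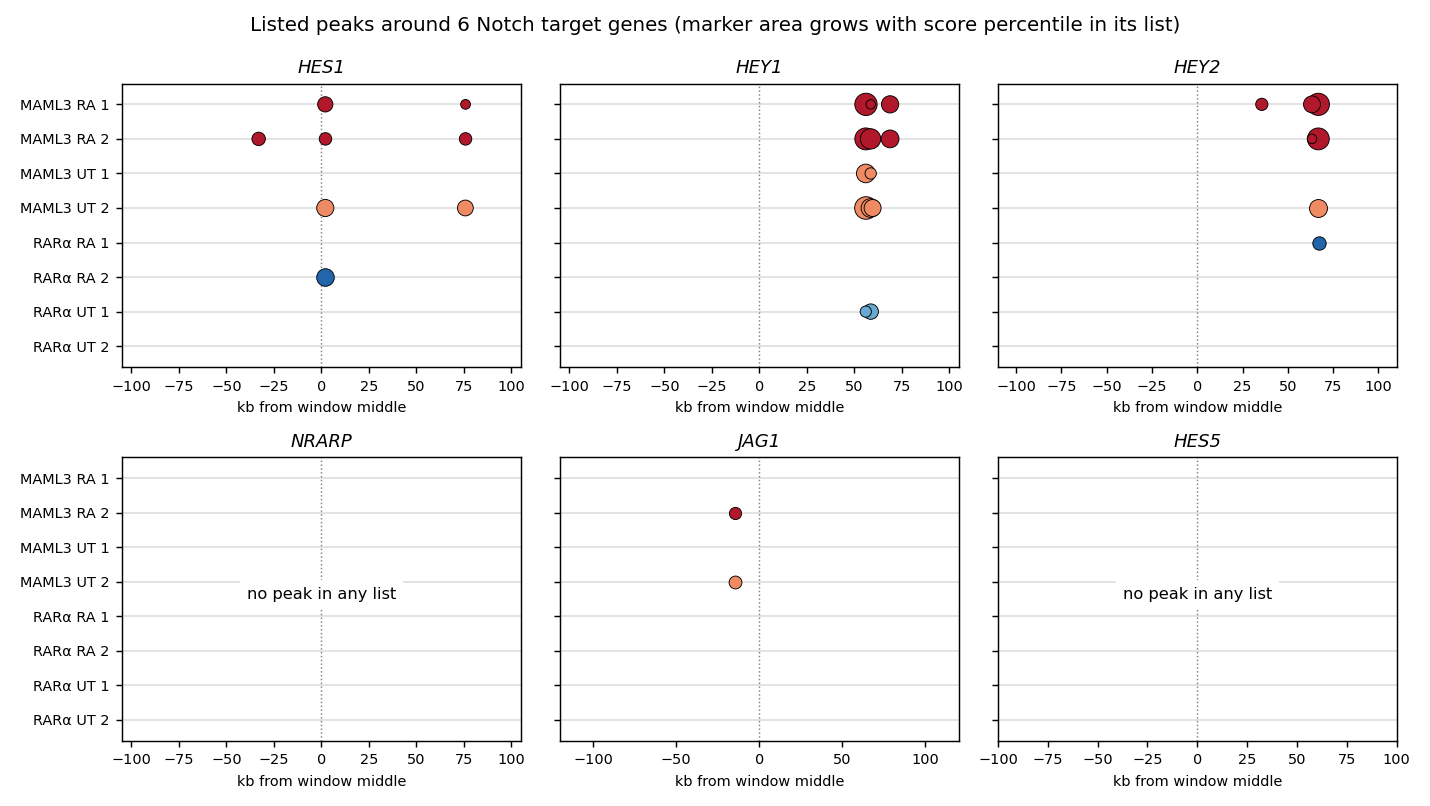
Listed peaks in the windows of the 6 genes, by distance from the window middle in kb (x axis) and library (y axis); marker area grows with the score percentile of the peak in its own list. HEY1 and HEY2 have grouped MAML3 peaks on one side, HES1 has a MAML3 peak in 3 lists near the middle, and NRARP and HES5 have no peak in any list.

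The highest-ranked MAML3 site of the 6 windows was a HEY1 site at chr8:80730826-80731358, 56.1 kb from the window middle, and it was in all 4 MAML3 lists. The score that the authors deposited for each peak, used here only to rank peaks within a list, was 373 and 303 in the RA lists, and 142 and 457 in the UT lists. The peak ranked 1288 of 7532 and 1275 of 6230 in the RA lists, and 1024 of 2222 and 985 of 6759 in the UT lists. It therefore stood among the upper peaks of 3 lists and near the middle of the short UT list, and no treatment was set apart. The peak centres of the 4 lists lay within 83 bp of each other.

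Further sites followed on the same side of HEY1. A second site in all 4 lists, at chr8:80733451-80733825, was separated from the first by 2092 bp. Its ranks were 7200 of 7532 and 2068 of 6230 in the RA lists, and 1951 of 2222 and 3043 of 6759 in the UT lists. The score percentiles within the lists were 4.42 and 66.8 in RA, and 12.2 and 55.0 in UT. In both treatments replicate 1 stood low in its list and replicate 2 in the middle or upper part, and the treatments overlapped. After 725 bp came a site of UT replicate 2 alone, at chr8:80734551-80734899, with rank 3860. The last site, at chr8:80743776-80744075, was listed in both RA libraries and in neither UT library, with ranks 4181 and 3219 in the RA lists, and it met the definition of a gained site. By GRCh38.p14 gene order the next protein-coding gene on this side of HEY1 is MRPS28, a mitochondrial ribosomal protein gene, and STMN2, a gene of neuronal microtubule regulation, lies on the other side. Nothing in the lists ties the HEY1 sites to one of these genes.

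Peak names bear on 2 of these HEY1 sites. The names are numbered in the order of position, and some numbers are not listed. A number that is not listed may stand for a called peak that was left out of the list, which was not tested. In RA replicate 2, 1 number is not listed between the second site and the gained site, the stretch in which UT replicate 2 has its own site. In UT replicate 2, 1 number is not listed between its last HEY1 peak and the next listed peak, which starts at 81085901, a stretch that includes the gained site. Neither the HEY1 site of UT replicate 2 alone nor the gained HEY1 site can thus be taken as absent from the other treatment. In the HES1, HEY2, NRARP, JAG1 and HES5 windows, no such number was missing in any of the 4 MAML3 lists.

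HEY2 had its strongest MAML3 site 66.8 kb from the window middle, at chr6:126146519-126147018. The deposited scores were 357 and 296 in the RA lists, and 154 in UT replicate 2, with no peak in UT replicate 1. The site ranked 1371 of 7532 and 1311 of 6230 in the RA lists, and 3440 of 6759 in UT replicate 2. The RA libraries were both high and close to each other. These ranks come from lists of different lengths and alone show no change. With each MAML3 list shortened to its 2222 highest scores, both RA lists held this HEY2 site and neither UT list did, as did 7.99% of all sites in the shortened lists. The first HEY1 site stayed in all 4 shortened lists, as did 30.0% of all sites, and the second HEY1 site stayed in RA replicate 2 and UT replicate 1. No site of the other 4 genes remained, and none of the 3 remaining sites was lost with RA (4.78% of all).

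The HEY2 neighbour at chr6:126143119-126143455, separated by 3063 bp, was in both RA lists and in neither UT list. It ranked 4339 of 7532 in RA replicate 1 and 5921 of 6230 in RA replicate 2. The RA replicate 2 peak scored 74.2, close to the lowest score of that list, 70.03. This site was the other gained site of the windows. Another HEY2 site, at chr6:126115506-126115755, was listed in RA replicate 1 alone, with rank 6316. The window ended 119 bp before a further MAML3 site at chr6:126190119-126190518, held by both RA lists and UT replicate 2. A site with the same holding lay 15.4 kb beyond the edge. By GRCh38.p14 gene order the next protein-coding gene on this side is NCOA7, which encodes a nuclear receptor coactivator. Its hg19 position was not analysed, so these sites may lie within NCOA7. Nothing in the lists ties them to HEY2 or to NCOA7.

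**Figure D2:**
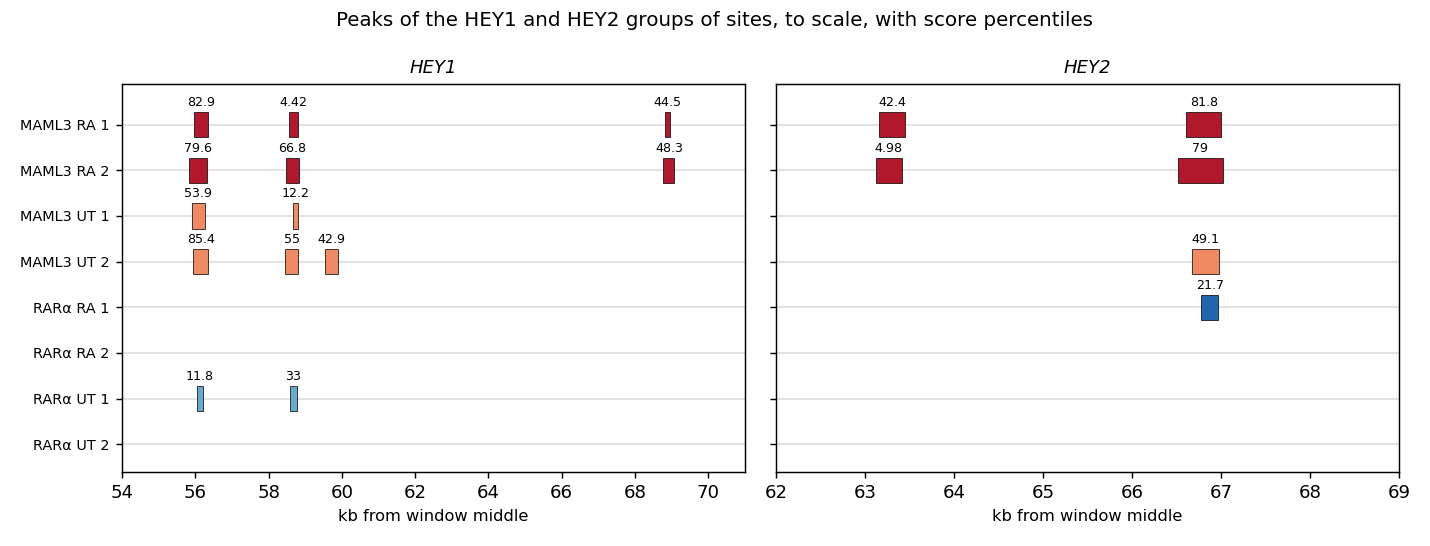
Peaks of the HEY1 (left) and HEY2 (right) groups of sites drawn to scale by distance from the window middle in kb (x axis) and library (y axis), with the score percentile of each peak in its list above it. The first HEY1 site is in all 4 MAML3 lists at percentiles of 82.9 and 79.6 in RA, and 53.9 and 85.4 in UT, whereas the HEY2 site at 66.8 kb is at 81.8 and 79.0 in RA, and at 49.1 in UT replicate 2.

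HES1 was the only one of the 6 genes with a MAML3 site within 10 kb of the window middle. That is a distance to the middle and not to the gene. The site at chr3:193856957-193857389 was centred 2.2 kb from the middle and was held by both RA lists and UT replicate 2. The deposited scores were 105 and 85.7 in the RA lists, and 140 in UT replicate 2. The ranks were 5115 of 7532 and 5150 of 6230 in the RA lists, and 3793 of 6759 in UT replicate 2. All 3 peaks stood in the lower or middle part of their lists. UT replicate 1, the short list, did not hold the site, and the reason was not tested. For comparison, 13966 tiles of 210 kb were laid over the range in which each chromosome had peaks. A MAML3 site of any list within 10 kb of the middle was found in 5.73% of them. A site of 2 or more lists was found there in 3.92%, and a site of 3 or more, as at HES1, in 2.71%.

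A more distant HES1 site at chr3:193930757-193931089, 75.9 kb from the middle, was held by the same 3 lists. Its ranks were 7091 and 5153 in the RA lists, and 4369 in UT replicate 2. The remaining HES1 site, at chr3:193821890-193822189, came from RA replicate 2 alone, with rank 4854. Outside the window, the nearest site was 29.1 kb beyond its edge and was listed in UT replicate 2 alone. The window of HES1 thus held no gained or lost site with all 4 lists.

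JAG1 had a single MAML3 site, at chr20:10625171-10625540, centred at -14.6 kb from the window middle. The window is 240 kb wide and holds about 100 kb on each side of JAG1, so the site may lie within the gene. The site was listed in RA replicate 2 with a score of 84.2 (rank 5234 of 6230) and in UT replicate 2 with a score of 91.4 (rank 5469 of 6759). Both peaks were low in their lists, and the other library of each treatment did not list the site. A site of RA replicate 1 alone lay 7.5 kb beyond the window edge, at chr20:10767460-10767709. No RARα list had a peak in the window, and the nearest RARα site of any list was 349.7 kb from the middle. RARα UT replicate 2 lacks 3 numbers before its first listed peak on chromosome 20, which starts at 39546622, so a peak here may be unlisted.

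NRARP and HES5 had no listed peak of either antibody in any of the 8 lists, and both lay in long empty stretches. RARα RA replicate 2 lacks 3 peak numbers between 10468 and 5525295 on chromosome 1, a stretch that contains the HES5 window. No MAML3 list had a peak on chromosome 1 between 940796 and 3656049, a stretch of 2.72 Mb that contains the HES5 window. There were 129 stretches as long or longer between MAML3 sites, together 20.5% of the range in which chromosomes had peaks. On chromosome 9, the last MAML3 site ended 2.54 Mb before the NRARP window, and the last peak of any list, a RARα RA replicate 1 peak, ended 0.31 Mb before it. The HES5 promoter held 2 RBPJ cores and the NRARP promoter none, so the empty windows included 1 promoter with the core and 1 without. Base composition, mappability and depth at these places were not analysed, and absence from the lists does not show that a place was free of MAML3 or RARα.

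**Figure D3:**
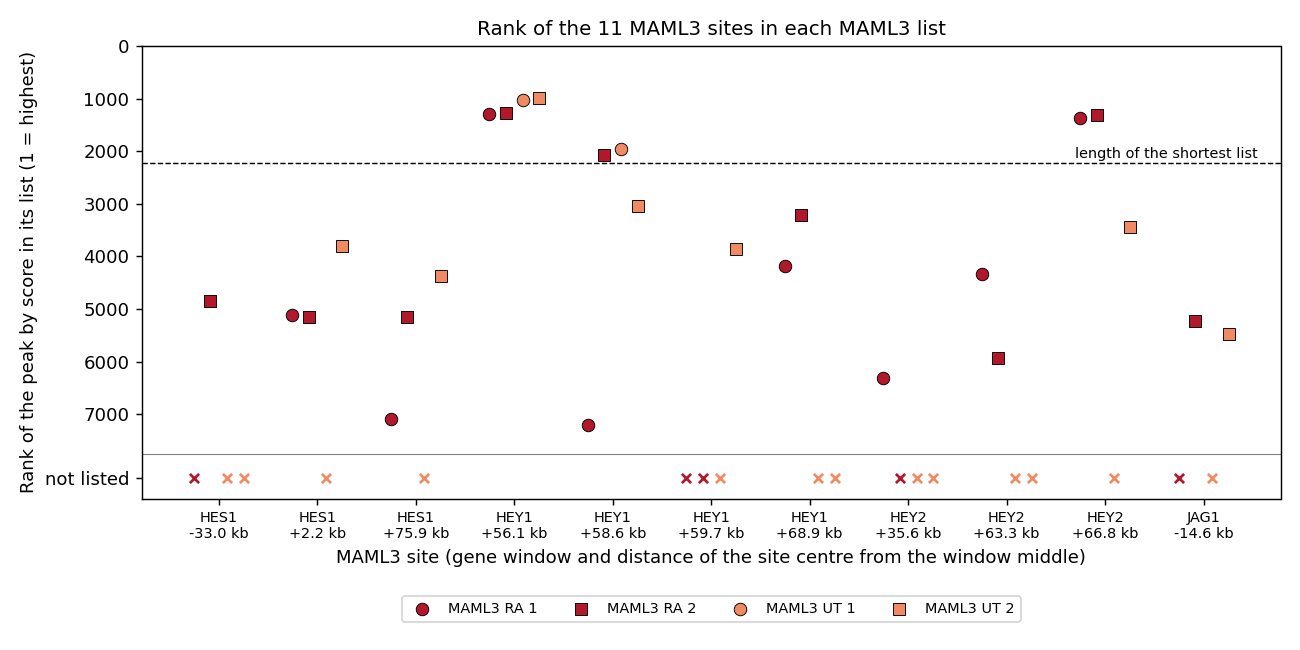
Rank by score of the 11 MAML3 sites in each MAML3 list (y axis, 1 is highest; crosses mark lists without the site), by gene and distance from the window middle (x axis). The first HEY1 site ranks between 985 and 1288 in all 4 lists and the HEY2 site at 66.8 kb ranks 1371 and 1311 in RA and 3440 in UT replicate 2, while most other peaks rank beyond the length of the shortest list, 2222.

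RARα was listed at 4 places in the windows, each in a single RARα list, and each on a MAML3 site. At HES1 the peak near the window middle came from RARα RA replicate 2, with a score of 113 and rank 569 of 1064. It lay at chr3:193857016-193857204, wholly inside the MAML3 peaks of RA replicate 1 and UT replicate 2, with its centre 5 and 29 bp from theirs. At HEY2 the strongest MAML3 site carried a peak of RARα RA replicate 1, with a score of 83.7 and rank 865 of 1103. At HEY1 both sites of all 4 MAML3 lists carried a peak of RARα UT replicate 1, with scores of 76.7 and 96.8 and ranks 1165 and 886 of 1321. The RARα centres lay 5 to 106 bp from the centres of the MAML3 peaks they overlapped.

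The RARα peaks gave no treatment difference that the replicates shared. The 4 RARα sites included 0 in both RA lists and 0 in both UT lists, against 26.3% and 8.92% of all RARα sites. A single list held each of the 4, whereas 56.0% of all RARα sites were in 1 list. The HES1 and HEY2 peaks were from RA libraries and both HEY1 peaks from a UT library, and the other library of the same treatment listed none of them. RARα UT replicate 2, with 251 peaks in all, listed neither HEY1 site. Absence from so short a list does not show that a place was free of RARα. Numbers are also missing in the RARα lists, in long stretches around the windows of HES1, HEY1 and HEY2. RARα RA replicate 1 lacks 1 number between 109006369 and 126146780 on chromosome 6, a stretch that ends at its own HEY2 peak. RARα UT replicate 1 lacks 2 numbers between 193463362 and 196625621 on chromosome 3, a stretch that includes the HES1 site listed in RA. RARα RA replicate 2 lacks 1 number between 80212819 and 89891896 on chromosome 8, a stretch that includes the HEY1 sites listed in UT. The RARα sites of HES1 and HEY1 can thus not be taken as absent from the other treatment. All 4 lay on a MAML3 peak, as did 84.4% of all RARα sites. The nearest RARα site of 2 or more lists was 391.6 kb from the middle of the HES1 window, 462.2 kb from that of HEY1 and 319.3 kb from that of HEY2.

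The 11 MAML3 sites of the 6 windows were set beside all MAML3 sites, without a test. Both RA lists held 7 of 11 (63.6%), against 48.3% of all MAML3 sites, and both UT lists held 2 of 11 (18.2%), against 19.0%. All 4 lists held 2 of 11, both at HEY1, against 16.8% of all. A single list held 3 of 11 (27.3%), against 37.2%. Both RA lists and UT replicate 2, without UT replicate 1, held 3 of 11 (27.3%), against 21.9%. RA gained 2 of 11 (18.2%), against 9.37%, and lost 0 of 11, against 0.683%. Without UT replicate 2, RA gained 5 of 10, against 35.7% of all, the added ones being both HES1 sites of 3 lists and the strongest HEY2 site. The UT list left then held 2 of 10, against 23.2%. Without UT replicate 1, RA gained 2 of 11 (18.2%), against 9.63%, while the UT list left held 7 of 11 (63.6%), against 65.9%. Gained counts thus turn on the UT list used, and the gained HEY1 site cannot be taken as absent from UT cells because of the unlisted number. Within replicate 1, 6 of 11 sites were in RA but not UT (54.5%), against 55.2%, and 0 in UT but not RA, against 1.97%. Within replicate 2, 3 of 11 were in RA but not UT (27.3%), against 18.4%, and 1 in UT but not RA (9.09%), against 23.1%. A RARα peak overlapped 4 of 11 (36.4%), against 17.0%, and both HEY1 sites of all 4 lists, against 55.7% of all sites in 4 lists. With the RARα lists shortened to the 251 peaks of the shortest, no RARα peak was left in the windows. All of them ranked lower, the highest at 569, so this setting says nothing of the overlap. With 11 sites in 4 neighbourhoods, each of these shares turns on 1 or 2 sites, and none is given as particular to these genes.

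**Figure D4:**
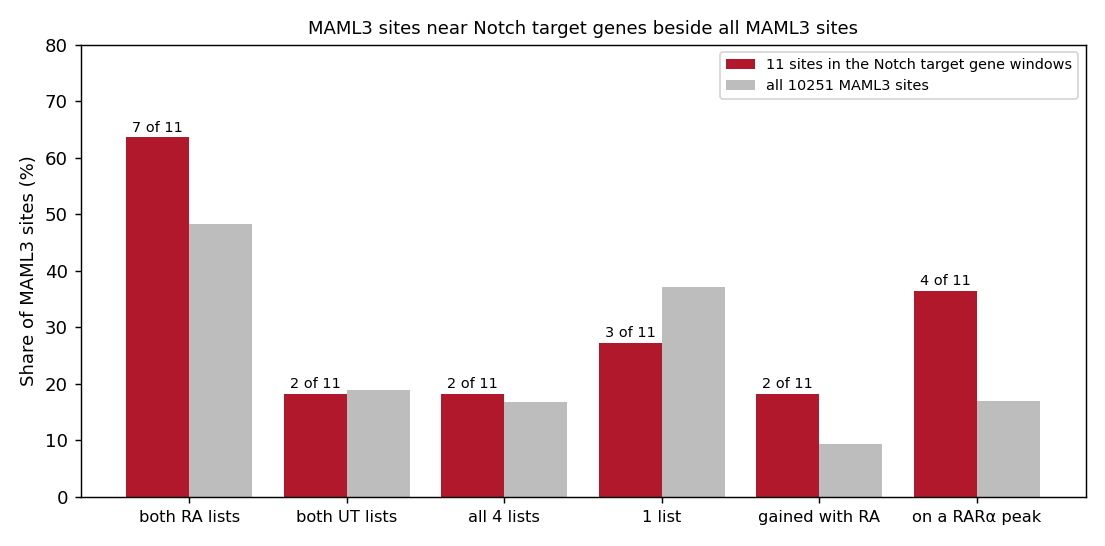
Share in percent of the 11 MAML3 sites in the 6 windows (dark bars) and of all 10251 MAML3 sites (grey bars) that fall in each class; no error is drawn because sites are not replicates. The shares of both UT lists (18.2 and 19.0%) and of all 4 lists (18.2 and 16.8%) lie close together, and those of both RA lists (63.6 and 48.3%), gained sites (18.2 and 9.37%) and sites on a RARα peak (36.4 and 17.0%) lie further apart.

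Most of the 11 sites stood in the lower part of their lists, and 2 stood well above. The mean score percentile over the lists that hold a site had a median of 31.1 over the 11 sites, from 16.2 to 75.4, against a median of 38.0 over all MAML3 sites. For the 8 sites in 2 or more lists the median was 32.9, against 50.6 over all such sites, and for the 3 sites in 1 list it was 22.1, against 19.9. The first HEY1 site (75.4) and the strongest HEY2 site (70.0) stood apart from the others, of which the highest was the gained HEY1 site at 46.4. Of the 11 sites, 5 had another MAML3 site within 5 kb (45.5%), 3 of them at HEY1 and 2 at HEY2, against 25.1% of all sites.

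The number of MAML3 sites per window was also set against the 13966 tiles of 210 kb. At least 1 site was in 35.2% of the tiles, at least 3 sites, the count of HES1 and of HEY2, in 9.24%, and at least 4 sites, the count of HEY1, in 4.89%. No site, as at NRARP and HES5, was found in 64.8% of the tiles. The NRARP window lies beyond the last peak of any list on chromosome 9, so it is outside the range that was tiled. Such chromosome ends are not in the 64.8%. At least 2 sites in all 4 lists, as at HEY1, were found in 2.39%. Tiles include stretches to which reads cannot be mapped and many far from any gene, so these shares describe the genome and are not a set of other genes. Peaks of the window of a gene may also belong to a neighbouring gene, which was not tested.

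**Figure D5:**
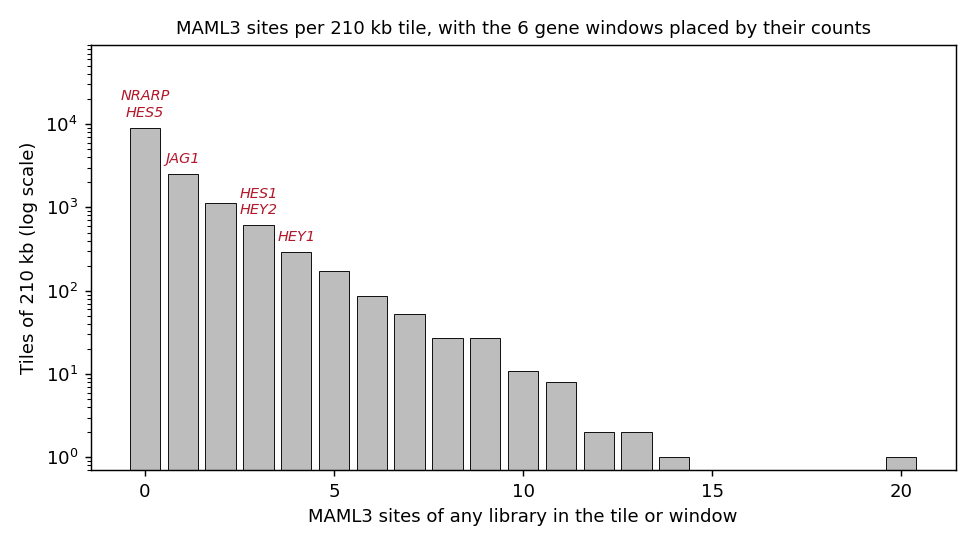
Number of 210 kb tiles (y axis, log scale) by the number of MAML3 sites of any library they hold (x axis), with the 6 genes written above the bar of their own count. NRARP and HES5 stand at 0 sites, JAG1 at 1, HES1 and HEY2 at 3 and HEY1 at 4.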

How the data were processed

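The authors deposited 1 peak list per ChIP library, without a header. Each line gives a position on hg19, a peak name and a score. The score was deposited by the authors as made by their peak calling, which peak names mark as MACS. Neither the lists nor the labels give its scale. Its minimum is about 70 in each list, and it was used only to rank peaks within a list. BWA 0.5.9 and, without versions, MACS and bedtools are named in the submitters' processing notes, with no roles. The calling threshold, any use of the 2 input samples (not analysed here) and how lists were filtered and intersected, as their names say, were not known.

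The labels gave the groups and the replicate numbers. Windows were read from the rule for the 6 genes. Peaks of the 4 lists of an antibody that shared 1 bp or more were merged into sites. Gained sites were those of both RA lists and neither UT list, and lost sites those of both UT lists and neither RA list. A score percentile is the share of a list's peaks at or below a peak's score. Tiles of 210 kb, the median window width, covered the range with peaks on each chromosome. The 6 genes and the lists were chosen with earlier results of these data known. The planned counts for further Notch pathway and retinoid response genes and the motif search within peaks were not run, because they need hg19 positions and sequence. Promoters came from RefSeq (GRCh38.p14). The alternatives were other window widths, overlaps and list lengths, and each replicate left out. Python 3.11.15, numpy 2.4.6, pandas 2.3.3 and matplotlib 3.10.9 were used.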

Additional observations from a re-analysis of the deposited data

How the results depend on the processing

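With 2 libraries per group and no read depth, presence on a list limits every count. Of 125 counts made under the alternatives, 79 stayed within 1.5 times the reported one. Some of the 79 could hardly move, such as counts of the RA lists with a UT list left out, so their number does not measure robustness. With the inner part of each window, at 50% of its width, the MAML3 lists held 2 and 3 peaks in RA and 0 and 2 in UT, and RARα RA replicate 1 and RARα UT replicate 1 held 0 each. Both RA lists then held 1 MAML3 site, both UT lists 0, all 4 lists 0, 0 were gained, 1 overlapped RARα, and 1 gene, HES1, had a site in both libraries of a treatment. With the 50% of peaks that score highest, the MAML3 lists held 2 and 3 peaks in RA and 1 and 2 in UT. With lists of equal length, these were 2 and 3 in RA and 2 and 1 in UT. Under both settings both RA lists held 2 MAML3 sites, both UT lists 1, all 4 lists 1, and 1 was gained. RARα RA replicates 1 and 2 and RARα UT replicate 1 then held 0 peaks in the windows. That 0 MAML3 sites overlapped RARα follows from this. The gained site was then the strongest HEY2 site, and neither of the 2 sites gained with the full lists was among the gained ones. With windows of double width and with the stricter and looser overlap, every count stayed within 1.5 times. With the MAML3 UT lists taken as 1 library, a setting chosen after seeing the data, untreated cells held 7 sites, 5 of them with both RA lists, and 1 site was lost, the HEY1 site of UT replicate 2 alone.

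Leaving out 1 library at a time, the sites of both UT lists ranged from 2 to 7 and those of all 4 lists from 2 to 5, the higher values without UT replicate 1. Gained sites ranged from 2 to 5, with 5 of 10 without UT replicate 2, where 35.7% of all sites were gained. Lost sites ranged from 0 to 1, with 1 without UT replicate 1, again the HEY1 site of UT replicate 2 alone. RARα sites of a whole treatment group ranged from 0 to 2, with 2 without RARα UT replicate 2, and MAML3 sites on RARα from 2 to 4, with 2 without RARα UT replicate 1. The sites of both RA lists ranged from 7 to 9 and the genes from 3 to 4. The cause of these moves is in part the rule itself, since 1 library then decides for its group. With the replicate numbers taken as pairs (a replicate block, chosen after seeing the data), the sites gained in both pairs were 2 and those lost in both were 0, as in the counts without pairing, because both rules are then the same. No paired test was run.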
